A study of Mus musculus with 2 samples.

Results

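Blood vessels of mouse gastrocnemius, a calf muscle, were described through 36 genes that mark endothelial cells, pericytes and vascular smooth muscle. The members were taken by gene symbol, and each gene's count was the sum over all of its transcript models. All 36 had reads in both libraries, among 15508 annotated genes with a read in either one. They fell by known role into 6 endothelial junction and surface genes, 6 endothelial receptors, 5 endothelial transcription factors, 8 genes of capillaries or secreted by endothelium, 4 pericyte genes, 5 smooth muscle genes and 2 genes that endothelial and mural cells share.

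The series holds long-read RNA sequencing of 1 group, males of the B6CASTF1/J hybrid (B6 crossed to CAST mice), 36 days old and with no treatment named. The group has 2 biological replicates, male 03 (replicate 1) and male 04 (replicate 2), each from 2 µg of RNA with Lexogen SIRV and Ambion mix 1 spike-ins. Both carry the same donor entry in the labels, and whether that entry stands for a strain or for an animal is not given in the sources used here. Whole muscle was sequenced, with no sort for vessel cells. Annotated genes took 1036455 reads in replicate 1 and 1374068 in replicate 2, and levels are given in CPM, reads scaled to 1000000 of those totals. A gene without reads could still lie at up to 2.89 CPM in the first library and 2.18 CPM in the second. The tables used here carry no molecular identifiers, so every interval covers counting error only.

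Endothelial cells line all vessels. Their junctions hold cadherin 5, claudin 5 and related proteins, and their growth and survival depend on VEGF receptors (Kdr, Flt1) and angiopoietin receptors (Tek, with the related Tie1). Pericytes sit on capillaries under control of PDGF receptor beta, and smooth muscle cells ring arterioles and venules with a contractile machinery of smooth muscle myosin, transgelin, calponin and myosin light chains. Skeletal muscle capillaries are known for Gpihbp1, which carries lipoprotein lipase to the capillary lumen, and for the water channel Aqp1. In a tissue sample, fewer cells of a type and less RNA per cell cannot be told apart.

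The 36 genes together held 964 reads (930 CPM) in replicate 1 and 1117 reads (813 CPM) in replicate 2. The 25 endothelial genes summed to 619 and 602 CPM, a log2 ratio of replicate 2 over replicate 1 of −0.04 (95% exact binomial interval −0.19 to 0.11). The 9 pericyte and smooth muscle genes summed to 285 and 190 CPM, a log2 ratio of −0.58 (−0.83 to −0.34). Rgs5 alone held 279 of the mural reads, and without it the other 8 mural genes had 130 and 147 reads and a log2 ratio of −0.23 (−0.58 to 0.12), near the median of −0.28 over all genes tested. Other scalings moved both ratios. TMM factors of edgeR, which raise every log2 ratio by 0.26, gave 0.21 for endothelial and −0.33 for mural genes, and DESeq2 size factors gave 0.37 and −0.18. The sign of the endothelial ratio and the size of the mural one therefore depend on the scaling.

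The level of a gene is compared here without division by length, since each long read was counted as 1 transcript. The libraries sampled long and short transcripts unequally, as described with the lengths, so how far the order of levels follows length was not tested. Rgcc, a regulator of the cell cycle and of endothelial growth, had the highest mean, 125 ± 15.7 CPM (SD, n = 2), with 118 reads in replicate 1 and 187 in replicate 2. Rgs5, a regulator of G protein signalling in pericytes, followed with 121 ± 53.9 CPM from 165 and 114 reads. The ranges of these top genes overlapped, and they ranked 858 and 885 among all genes. Next came Myl9, the regulatory light chain of smooth muscle myosin, with 66.7 ± 5.57 CPM, Aqp1 with 59.6 ± 1.10 CPM and Ly6c1, a surface antigen of endothelium, with 53.5 ± 4.66 CPM. Ly6c2, the near-identical neighbour of Ly6c1, had 0 reads in both libraries.

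These 5 genes held 49.0% of all reads of the 36. Egfl7, Esam and Gpihbp1 followed at 44.7, 44.1 and 42.6 CPM, and 19 of the 36 genes had a mean of at least 10 CPM. At the other end, 7 genes had a mean under 5 CPM: Flt1, Sox18, Emcn, Kdr, Cnn1, Notch3 and Cspg4. Genes often used to define vessel cells were thus among the lowest, with Kdr at 4 and 4 reads, the endothelial mucin Emcn at 4 and 5, Pecam1 at 9 and 6 and the pericyte proteoglycan gene Cspg4 at 3 and 1. In the order by mean level, only 4 of 35 neighbouring pairs had ranges over the libraries that did not overlap: Rgs5 over Myl9, Myl9 over Aqp1, Aqp1 over Ly6c1 and Cdh5 over Flt1.

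**Figure D1:**
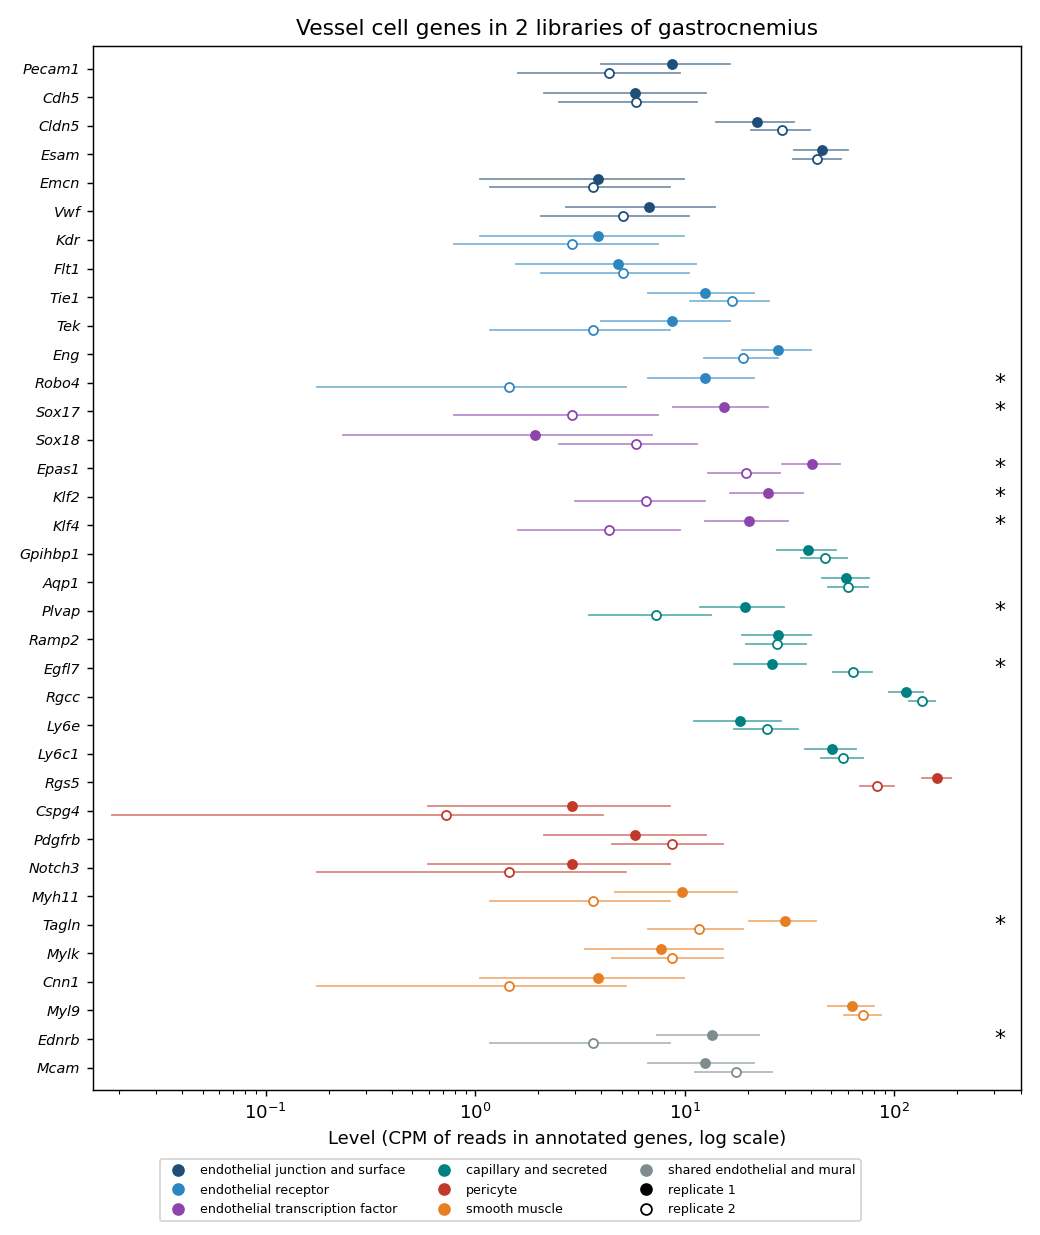
Level of each of the 36 genes in CPM (log axis) in replicate 1 (filled) and replicate 2 (open), coloured by role, with exact Poisson 95% intervals for counting error. Asterisks mark the 9 genes called different between the libraries, 8 with the filled point to the right and Egfl7 with the open point to the right.

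With 1 library on each side, genes whose reads summed to 10 or more went through an exact binomial test (two-sided) against the library totals, adjusted by Benjamini-Hochberg over all 8339 such genes. The test compares these 2 libraries and not conditions. A call needed an adjusted p under 0.05 and at least a 2-fold difference, with 0.5 reads added to each count for log2 ratios. Of the 36 genes 31 could be tested, and Emcn, Kdr, Cspg4, Notch3 and Cnn1 were below the minimum. Of the 31, 8 were called higher in replicate 1 (25.8%), against 12.9% of all genes tested, and 1 was called higher in replicate 2 (3.23%), against 5.76% of all genes. The median log2 ratio was −0.02 over the 31 and −0.28 over all genes tested. The 8 were Klf2, Klf4, Sox17, Epas1, Robo4, Plvap, Tagln and Ednrb, and the 1 was Egfl7.

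The number called moved with the processing. With TMM factors 5 genes were called higher in replicate 1 (background 7.33%) and 1 in replicate 2 (10.1%). With DESeq2 size factors the counts were 4 (background 4.5%) and 1 (13%). Without a minimum count, 6 of all 36 genes were called higher in replicate 1 (background 6.3%) and 1 in replicate 2 (background 2.75%). Without incomplete and genomic models, 8 of 23 were called higher in replicate 1 (background 18.8%) and 1 in replicate 2 (background 5.16%). These 8 included Aqp1 and Rgs5 in place of Sox17 and Robo4. After removal of the trend on transcript length, 3 were called higher in replicate 1 (background 3.46%) and 0 in replicate 2 (5.81%) by the exact binomial test. Klf2 was the 1 gene of the 9 called in the same direction under all 5 alternatives of scaling, count minimum, models counted and length.

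Of the 5 endothelial transcription factors, 4 were called higher in replicate 1, where 12.9% of all tested genes were called. The count was 3 of 5 with TMM factors, with DESeq2 size factors or without incomplete and genomic models, and 2 of 5 with the length trend removed; a difference between roles was not tested. Their sum was 103 CPM in replicate 1 and 39.3 CPM in replicate 2, a log2 ratio of −1.39 (−1.89 to −0.91). Klf2, the Krüppel-like factor that blood flow induces in endothelium, had 26 reads in replicate 1 and 9 in replicate 2 (25.1 and 6.55 CPM; log2 ratio −1.89, exact binomial test, adjusted p = 0.00151). Klf4, a related factor also known in smooth muscle and epithelium, had 21 and 6 reads (20.3 and 4.37 CPM; −2.13, adjusted p = 0.00195), a call lost with the length trend removed (−1.52, adjusted p = 0.0669). Sox17, an arterial factor, had 16 and 4 reads (15.4 and 2.91 CPM; −2.28, adjusted p = 0.00558). Its call was lost when incomplete and genomic models were not counted (12 and 4 reads; adjusted p = 0.0625).

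Epas1, the hypoxia-inducible factor HIF-2 alpha, had 42 and 27 reads (40.5 and 19.7 CPM, log2 ratio −1.03, exact binomial test, adjusted p = 0.0145). Its call was lost with TMM factors (−0.78, adjusted p = 0.0886), with DESeq2 size factors (−0.63, adjusted p = 0.220) and with the length trend removed (−0.44, adjusted p = 0.501). Sox18, the fifth factor, had 2 reads in replicate 1 and 8 in replicate 2, which was not called (adjusted p = 0.355). It thus lay on the other side of 0 from the 4 that were called.

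The RefSeq promoters of the 2 Krüppel-like factors are shown because these genes were called in the same direction. Each line gives the 250 bases before the RefSeq start on GRCm38.p6, 5′ to 3′ on the gene's strand, from chr8:72318812-72319061 (plus strand) for Klf2 and chr4:55532476-55532725 (minus strand) for Klf4. Capitals mark matches to the GC box GGGCGG on either strand and, in Klf2, to the MEF2 site.
Klf2: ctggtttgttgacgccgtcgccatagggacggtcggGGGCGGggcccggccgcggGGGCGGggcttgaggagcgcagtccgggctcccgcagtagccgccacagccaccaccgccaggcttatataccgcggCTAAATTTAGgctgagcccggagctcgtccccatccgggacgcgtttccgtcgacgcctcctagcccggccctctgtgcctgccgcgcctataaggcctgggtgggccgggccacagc
Klf4: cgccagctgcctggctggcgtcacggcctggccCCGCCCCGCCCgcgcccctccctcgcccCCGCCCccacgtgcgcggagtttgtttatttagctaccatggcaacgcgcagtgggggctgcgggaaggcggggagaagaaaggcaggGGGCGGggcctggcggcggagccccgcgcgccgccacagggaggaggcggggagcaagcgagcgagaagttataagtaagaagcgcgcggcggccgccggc
In Klf2 the GC boxes start at 214 and 195 bases before the start and the MEF2 site at 118 bases before it. In Klf4 the GC boxes start at 217, 212, 189 and 101 bases before the start, and the first pair shares 1 base. The GC box stood in 32.7% and the MEF2 site in 2.92% of 32851 RefSeq promoter windows of this length. The 36 genes matched 25 such windows of 22 genes, of which 12 held a GC box and 1, that of Klf2, the MEF2 site. A CArG box, the site of serum response factor, stood in 1 of the 25, that of Myl9, at 161 bases before the start, and in 1.47% of all windows. A match of letters is a description and not a binding site.

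Among the endothelial receptors, 1 of 5 tested genes was called higher in replicate 1 (background 12.9%). Robo4, an endothelial receptor of the roundabout family that stabilises vessels, had 13 reads in replicate 1 and 2 in replicate 2 (12.5 and 1.46 CPM; log2 ratio −2.84, exact binomial test, adjusted p = 0.00475). The call was lost with the length trend removed (−2.23, adjusted p = 0.0567). Only 2 and 0 of these reads were outside incomplete and genomic models, too few for the test, and the largest model, an incomplete one of 7 exons, held 5 and 0. Tie1 had 13 and 23 reads, Eng, the TGF-beta co-receptor endoglin, 29 and 26, and Tek 9 and 5, none of them called. The VEGF receptors were near the floor in both libraries, Flt1 with 5 and 7 reads and Kdr with 4 and 4. The 6 receptors summed to 70.4 and 48.8 CPM, a log2 ratio of −0.53 (−1.03 to −0.03).

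Among the receptors, splice forms could be read for Flt1 and Eng. Flt1-203 has 13 exons and encodes the soluble receptor that binds VEGF without a kinase domain, and Flt1-202 has 30 exons and encodes the full receptor. Flt1-203 held 3 reads in replicate 1 and 1 in replicate 2, and Flt1-202 held 1 and 0, so of 5 reads in annotated models over both libraries 4 were of the soluble form. The other reads were single-exon models in a last exon, that of the full form for 1 read in replicate 1 and 5 in replicate 2, and that of Flt1-203 for 1 read in replicate 2. Counted with these, the full form had 2 and 5 reads and Flt1-203 had 3 and 2. The coding sequences where the forms part are shown on the minus strand of chromosome 5 (mm10, GENCODE M21 transcripts), with a shared stretch in lower case and the bases of each form in capitals; those of Flt1-203 lie at chr5:147639133-147639224 and those of Flt1-202 start the next exon, at chr5:147634479-147634523.
Flt1-203: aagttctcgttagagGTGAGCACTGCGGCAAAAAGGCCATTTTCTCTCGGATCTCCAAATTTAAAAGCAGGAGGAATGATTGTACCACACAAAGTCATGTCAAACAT
Flt1-202: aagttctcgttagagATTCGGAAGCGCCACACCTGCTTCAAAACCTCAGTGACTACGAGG
Flt1-203 reads on into the intron after its exon 13 for 92 coding bases, while Flt1-202 joins the next exon.

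For Eng, Eng-201 held 16 and 10 reads and Eng-205 held 4 and 3. These forms differ, among other places, at the start of exon 2 by 3 coding bases, at chr2:32657516-32657518 on the plus strand, shown in capitals.
Eng-201: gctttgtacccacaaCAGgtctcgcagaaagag
Eng-205: gctttgtacccacaagtctcgcagaaagag
Eng-205 held 13.8% of Eng reads in replicate 1 and 11.5% in replicate 2, so the shorter form was the minor one in both libraries.

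No junction or surface gene was called among the 5 tested (background 12.9% higher in replicate 1 and 5.76% in replicate 2). Esam, an adhesion molecule of endothelial junctions and platelets, had 47 and 59 reads (45.3 and 42.9 CPM), Cldn5, the claudin of tight junctions, 23 and 40, Cdh5 6 and 8, Pecam1 9 and 6, and Vwf, which encodes von Willebrand factor, 7 and 7. The group summed to 92.6 and 91.0 CPM, a log2 ratio of −0.03 (−0.42 to 0.37).

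The capillary and secreted group carried the largest part of the reads, 353 CPM in replicate 1 and 423 CPM in replicate 2, a log2 ratio of 0.26 (0.07 to 0.45). Rgcc (114 and 136 CPM), Aqp1 (58.9 and 60.4 CPM), Ly6c1 (50.2 and 56.8 CPM), Gpihbp1 (38.6 and 46.6 CPM), Ramp2 (28.0 and 27.7 CPM) and Ly6e (18.3 and 24.7 CPM) were not called. Ramp2 encodes a subunit of the adrenomedullin receptor, and Ly6e encodes a glycolipid-anchored surface protein. Plvap, which forms the diaphragms of fenestrated endothelium, had 20 and 10 reads (19.3 and 7.28 CPM, log2 ratio −1.37, exact binomial test, adjusted p = 0.0354). This call was kept under 1 of the 5 alternatives, without incomplete and genomic models. It was lost with TMM factors (−1.12, adjusted p = 0.119) and DESeq2 size factors (adjusted p = 0.232). It was also lost without a minimum count (adjusted p = 0.0644) and with the length trend removed (adjusted p = 0.180).

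Egfl7, a secreted protein of endothelial cells whose gene hosts the microRNA miR-126, was the 1 member called higher in replicate 2, with 27 and 87 reads (26.1 and 63.3 CPM; log2 ratio 1.26, exact binomial test, adjusted p = 0.000218). The call was lost with the length trend removed (0.50, adjusted p = 0.311). Its reads were split between the spliced protein-coding form Egfl7-202 (10 exons, 1372 bases), with 13 reads in replicate 1 and 16 in replicate 2, and Egfl7-213 (1 exon, 536 bases), with 8 and 45. The length trend was taken at the 536 bases of Egfl7-213, which held the most reads over both libraries but not in replicate 1. The loss of the call rests on that length, and the length of Egfl7-202 was not tested. Egfl7-213 keeps the last intron, of 137 bases, at chr2:26592281-26592417 on the plus strand, and reads in models that keep it made up 29.6% of those placed in replicate 1 (Wilson 95% interval 15.9 to 48.5) and 52.3% in replicate 2 (41.9 to 62.6). The intron is shown in capitals, with 15 bases of the coding exon on each side.
Egfl7-213: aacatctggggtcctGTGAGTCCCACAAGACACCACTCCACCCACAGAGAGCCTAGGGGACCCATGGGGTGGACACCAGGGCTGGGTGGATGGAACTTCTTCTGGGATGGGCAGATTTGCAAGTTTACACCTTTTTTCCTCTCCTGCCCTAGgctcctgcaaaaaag
The deposited models carry the ends of the annotation, so whether each read assigned to Egfl7-213 crosses the intron was not tested. The share of Egfl7-213 among Egfl7 reads, 29.6% and 51.7%, did not differ in the test of leading models (Fisher exact test, adjusted p = 0.148).

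The pericyte group summed to 171 and 93.9 CPM, a log2 ratio of −0.86 (−1.20 to −0.53), and Rgs5 supplied most of it with 159 CPM in replicate 1 and 83.0 CPM in replicate 2. The difference in Rgs5 had a small adjusted p (exact binomial test, 1.07e-06) but a log2 ratio of −0.94, just short of 2-fold, and it was called (−1.30, adjusted p = 6.25e-09) when incomplete and genomic models were left out. Pdgfrb had 6 and 12 reads, Notch3, the Notch receptor of mural cells, 3 and 2, and Cspg4 3 and 1. All Cspg4 reads were genomic single-exon models. Apart from Rgs5, pericyte genes were thus read a few times per library.

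Smooth muscle genes summed to 114 and 96.1 CPM, a log2 ratio of −0.25 (−0.61 to 0.13). Tagln, the actin-binding protein transgelin, had 31 and 16 reads (29.9 and 11.6 CPM; −1.34, exact binomial test, adjusted p = 0.00867) and was called higher in replicate 1, a call lost with DESeq2 size factors (−0.93, adjusted p = 0.115). Myl9 had 65 and 97 reads (62.7 and 70.6 CPM) and was not called. Myh11, the smooth muscle myosin heavy chain, had 10 and 5 reads, Mylk, which encodes myosin light chain kinase, 8 and 12, and Cnn1, which encodes calponin, 4 and 2.

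Myh11 and Mylk were read in forms known from smooth muscle. Myh11-201 held 4 reads in replicate 1, and Myh11-204, with 1 more exon, held 2; neither had reads in replicate 2. The extra exon has 21 bases, at chr16:14248580-14248600, and is shown in capitals on the minus strand between coding flanks.
Myh11-204: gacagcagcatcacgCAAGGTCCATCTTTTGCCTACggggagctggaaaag
Mylk-203, a short form of 3 exons at the 3′ end of the gene like that of telokin, held 0 reads in replicate 1 and 3 in replicate 2. No read was in a full-length annotated model of the kinase, and the other reads were mostly genomic single-exon models, 7 of 8 in replicate 1 and 9 of 12 in replicate 2.

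Of the genes that endothelial and mural cells share, Ednrb, the endothelin receptor B, had 14 and 5 reads (13.5 and 3.64 CPM; −1.81, exact binomial test, adjusted p = 0.0340) and was called higher in replicate 1. The call was kept under 1 of the 5 alternatives, without incomplete and genomic models. It was lost with TMM factors (−1.55, exact binomial test, adjusted p = 0.102) and DESeq2 size factors (adjusted p = 0.166). It was also lost without a minimum count (adjusted p = 0.0618) and with the length trend removed (adjusted p = 0.315). Ednrb-202, of 7 exons, held 11 reads in replicate 1 and 0 in replicate 2. Mcam, the adhesion molecule CD146, had 13 and 24 reads and was not called. Mcam-201 held 4 and 4 reads, and Mcam-202, which skips an exon of 118 bases at chr9:44141275-44141392, held 1 and 3.

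Log2 ratios between the libraries varied with transcript length. Over all genes with at least 50 reads in sum, the median log2 ratio was 0.67 for leading models under 1000 bases, 0.07 from 1000 to 2000 bases, −0.55 from 2000 to 4000 bases and −0.58 above 4000 bases. The 31 tested vessel genes, whatever their count, had medians of 0.26 (5 genes), −0.05 (10), −0.29 (8) and −0.99 (8) in the same classes. Egfl7, with a leading model of 536 bases, lay in the shortest class with Sox17 (840 bases), Gpihbp1, Rgcc and Ly6c1, and Sox17 was the 1 of these 5 genes below 0. The length of Egfl7 is that of Egfl7-213, although the 1372-base Egfl7-202 held more of its reads in replicate 1. Among the longest were Robo4 (4952 bases) and Epas1 (5516 bases). The part of length in each difference was not tested beyond the alternative that removes the trend, after which Klf2, Sox17 and Tagln remained called. For Sox17 that result rests on the 840 bases of the 2-exon Sox17-204, which held 12 and 3 reads and where the trend is 0.57. A genomic Sox17 model of 1527 bases held 4 and 0 reads, and a 3-exon model of 1924 bases held 0 and 1. Whether Sox17 would be called at those lengths was not tested.

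**Figure D2:**
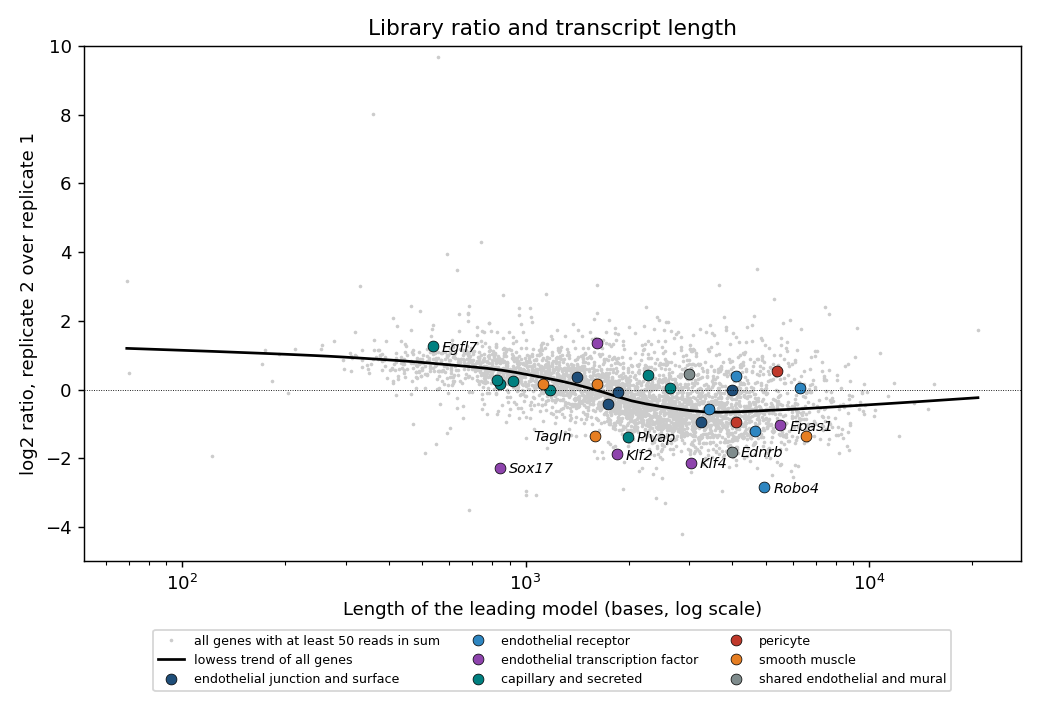
Log2 ratio of replicate 2 over replicate 1 against the length of the leading model (log axis) for all genes with at least 50 reads in sum (grey), their lowess trend (line), and the 31 tested vessel genes coloured by role, with the 9 called genes named. Egfl7 sits near the trend at the left, and Sox17, Klf2 and Tagln lie below it.

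The 2 libraries also differed in how complete the vessel transcripts were. Unannotated single-exon models held 12.2% of reads of the 36 genes in replicate 1 (118 of 964; Wilson 95% interval 10.3 to 14.5) and 24.98% in replicate 2 (279 of 1117; 22.5 to 27.6), against 5.39% and 12.7% over all annotated genes. Of these vessel reads, 95.8% in replicate 1 and 99.6% in replicate 2 were in models inside an annotated last exon. Models that end at an annotated 3′ end held 93.2% and 94.6%. Since deposited models carry ends of the annotation, where each read itself ended was not tested. The share went from 14.1% to 44.2% for pericyte genes, from 12.1% to 40.7% for the transcription factors, and from 9.59% to 35.8% for the receptors. It went from 14.6% to 29.6% for junction genes, from 15.3% to 21.2% for smooth muscle genes, from 11.2% to 16.2% for the capillary group and from 0 of 27 to 17 of 29 reads for the shared genes. Aqp1 alone held 27 of the 41 single-exon reads of the capillary group in replicate 1 and 73 of 94 in replicate 2. Rgs5 held 21 of 25 and 48 of 57 of those of the pericyte group. The shares of these groups thus mostly follow 1 gene each. The tables do not always give a model the same class: of 80 models of these genes read in both libraries, 6 had another class in each. The largest were the single-exon models of Rgs5 (incomplete in replicate 1, genomic in replicate 2) and Aqp1 (genomic, then incomplete). The single-exon shares do not depend on that label, while the split between incomplete and genomic does. At 1 extreme, 10 of 23 Tie1 reads in replicate 2 were in a model listed at a length of 1 base.

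**Figure D3:**
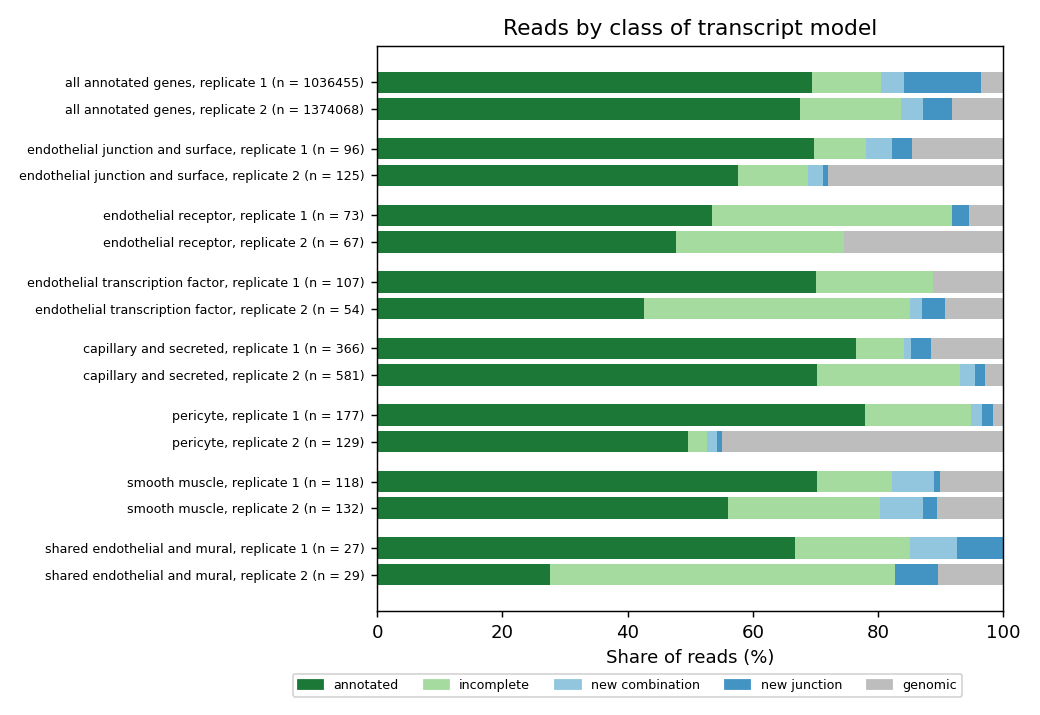
Share of reads (%) in each class of transcript model, for all annotated genes and for the 7 roles, in each replicate, with the number of reads in brackets. The incomplete and genomic classes take a larger part in replicate 2 in all annotated genes, and in pericyte genes the main single-exon model of Rgs5 is labelled incomplete in replicate 1 and genomic in replicate 2.

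For Aqp1 the single-exon models changed the direction between the libraries. With all models it had 61 and 83 reads and a log2 ratio of 0.03, far from a call. A single-exon model inside the last exon held 27 of these reads in replicate 1 (44.3%) and 73 in replicate 2 (88.0%), while the annotated 4-exon form Aqp1-201 held 32 and 9. Counted without incomplete and genomic models, Aqp1 had 33 and 9 reads, a log2 ratio of −2.05 (exact binomial test, adjusted p = 0.000234), and was called higher in replicate 1.

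The share of the leading model was compared where both libraries held 20 or more reads of a gene (two-sided Fisher exact test, Benjamini-Hochberg over 3691 genes, and at least 20 percentage points). It was called different in 4 of 12 vessel genes, against 16.9% of all genes tested. Besides Aqp1 (adjusted p = 3.33e-07), these were Rgs5, Esam and Epas1. Rgs5-201, of 5 exons and 4096 bases, held 82.4% of Rgs5 reads in replicate 1 and 54.4% in replicate 2 (adjusted p = 7.15e-06). Esam-201 held 72.3% and 39.0% (adjusted p = 0.00516), and Epas1-201 held 66.7% and 25.9% (adjusted p = 0.00774). In all 4 the reads that the leading or annotated form lost in replicate 2 lay mostly in single-exon models of the last exon, 48 of 114 reads for Rgs5, 30 of 59 for Esam and 15 of 27 for Epas1.

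In the other 8 the share of the leading model was not called different: Rgcc-201 with 89.8% and 88.2%, Cldn5-201 with 100% and 100%, Ramp2-204 with 82.8% and 94.7%, Gpihbp1-201 with 34 of 40 and 46 of 64 reads, Myl9-201 with 73.8% and 61.9%, Ly6c1-201 with 44.2% and 44.9%, Eng-201 with 55.2% and 38.5%, and Egfl7-213 as above. Egfl7-213 led in replicate 2 (45 reads against 16 of Egfl7-202) but not in replicate 1 (8 against 13). With 50 or more reads per library, 2 of 5 vessel genes were called (Aqp1 and Rgs5; background 19.6%). Without incomplete and genomic models, 0 of 9 vessel genes were called by the Fisher exact test (background 0.556%).

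**Figure D4:**
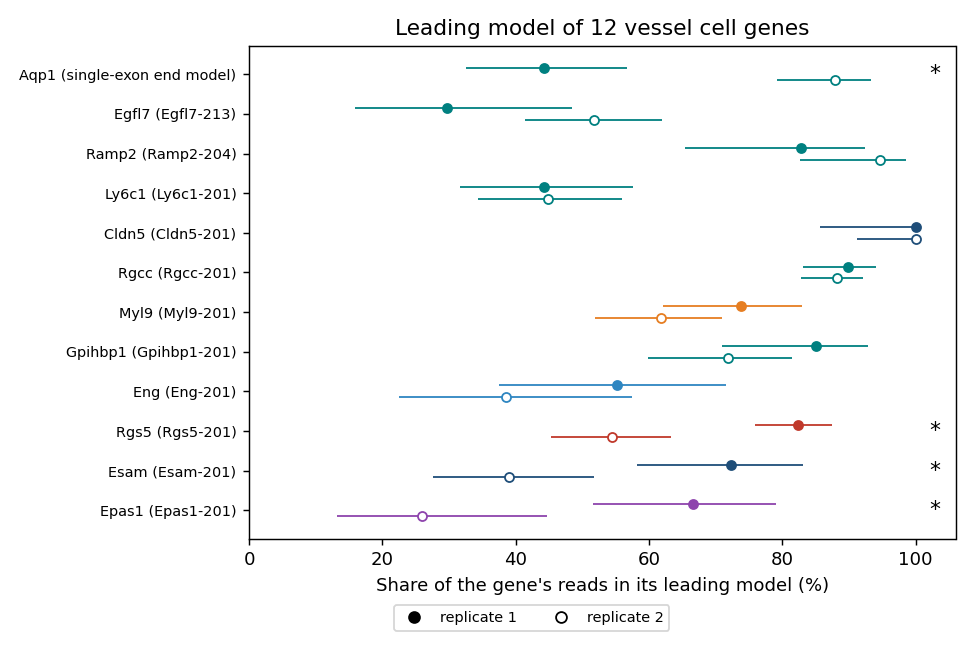
Share of a gene's reads in its leading model (%) for the 12 vessel genes with 20 or more reads per library, in replicate 1 (filled) and replicate 2 (open), with Wilson 95% intervals. Asterisks mark Aqp1, Rgs5, Esam and Epas1, the 4 genes called different.

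Other genes of vessel signalling, from lists of known roles, put these members in context. Of 12 ligands, 12 had reads in replicate 1 and 10 in replicate 2, and 5 were tested. Of these 1 was called higher in replicate 1 (background 12.9%): Pdgfa, a ligand of PDGF receptors, with 25 and 14 reads (log2 ratio −1.22, exact binomial test, adjusted p = 0.0338). Vegfb, with 90 and 167 reads, and Vegfa, with 85 and 74, were read more often than the receptors Flt1 (5 and 7) and Kdr (4 and 4). The other VEGF family ligands were as low as the receptors or lower, Pgf with 4 and 2 reads, Vegfd with 2 and 2 and Vegfc with 1 and 0. The chemokine gene Cxcl12 had 27 and 28 reads. The angiopoietin genes had 3 and 3 reads (Angpt1) and 3 and 0 (Angpt2), Pdgfb had 5 and 7 and the endothelin gene Edn1 2 and 1.

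Of 23 other endothelial genes 15 were tested, with 3 called higher in replicate 1 (background 12.9%) and 1 in replicate 2 (background 5.76%), counts too small to set apart from those shares. The median log2 ratio was −0.75. The ETS factor Ets1 had 21 and 3 reads (−3.03, exact binomial test, adjusted p = 9.24e-05), the VEGF and semaphorin co-receptor Nrp1 had 32 and 9 (−2.18), the sialomucin Cd34 had 59 and 32 (−1.28), and the fatty acid transporter Cd36, also known in muscle fibres and adipocytes, had 62 and 187 (1.18). Cav1, which encodes the caveolae protein caveolin 1, had 80 and 56 reads. It was not called because its log2 ratio of −0.92 was short of 2-fold (exact binomial test, adjusted p = 0.00161). Of 14 other mural genes 10 were tested and 3 were called higher in replicate 1 (background 12.9%), with a median log2 ratio of −0.60 beside −0.28 over all genes: Acta2, smooth muscle actin, with 52 and 33 reads (−1.06), Abcc9, a subunit of the KATP channel of pericytes and muscle, with 49 and 29 (−1.15), and Cald1, which encodes caldesmon, with 16 and 5 (−1.99). The highest of the list, Tpm2 (3340 and 3027 reads), Synpo2 (304 and 257) and Smtn (120 and 80), are also expressed by skeletal muscle fibres and were not called. Each had a small adjusted p (exact binomial test, 5.34e-50, 1.46e-06 and 1.6e-05) but a log2 ratio short of 2-fold (−0.55, −0.65 and −0.99).

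Markers of other cell types moved between the libraries as well. Fibroblast genes (6 of 6 with reads in both) summed to 3604 and 961 CPM. Of 6 tested, Col1a1 (5930 bases), Col1a2 (4543 bases) and Col3a1 (5564 bases) were called higher in replicate 1 (background 12.9%). Dcn (378 and 270 reads), Lum (45 and 35) and Pdgfra (4 and 7) were not called, and Pdgfra lay in the other direction. Dcn had a small adjusted p (exact binomial test, 1.33e-13) but a log2 ratio of −0.89, short of 2-fold. Schwann cell genes (4 and 3 of 4) summed to 932 and 333 CPM. Of 3 tested, Mbp (1922 bases) was called higher in replicate 1 (background 12.9%). Adipocyte genes (4 of 4) summed to 140 and 379 CPM. The 3 tested, Adipoq (1292 bases), Cfd (871 bases) and Fabp4 (896 bases), were called higher in replicate 2 (background 5.76%). Fabp4 is also known in capillary endothelium. Plin1, of the same list, had 3 and 1 reads, too few for the test. Haemoglobin genes (4 of 4) summed to 270 and 357 CPM and immune genes (4 of 5) to 45.3 and 26.2 CPM. The leukocyte gene Ptprc, the satellite cell gene Pax7 and the lymphatic factor Prox1 were at 0 in both libraries, and the 4 lymphatic genes summed to 8.68 and 6.55 CPM. Of the satellite cell list, Chodl had 17 and 16 reads and Myf5 had 0 and 1. The part of transcript length in the differences of these markers was not tested. The part of these cell types in the differences of the vessel genes was not tested.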

How the data were processed

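Long-read libraries of 2 replicates of 1 group were compared. The deposited counts are whole numbers of reads per transcript model, raw and not pooled, made by the authors on mm10 with GENCODE M21, per the file headers, and sorted by TALON into annotated, incomplete, new-combination, new-junction and genomic models. The members and lists were chosen with earlier results of these data known. In the sources used here the aligner and the TALON version are not given.

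The count of an annotated gene was summed over its models, without spike-ins (3.68% and 2.42% of reads); annotated genes held 97.2% and 93.0% of mouse reads. Tests were run with SciPy 1.17.1 as given with the results, and were checked on simulated data; edgeR's quasi-likelihood test had no residual degree of freedom. TMM and size factors came from edgeR 4.0.16 and DESeq2 1.42.0. Group ratios carry exact binomial, shares Wilson 95% intervals. Models were matched between libraries by splice junctions, and overlapping unannotated single-exon models were joined. The length trend was a lowess curve (fraction 0.3). All 36 members, listed vascular genes called by the test and the 3 highest of each list are named. Alternatives were other scalings, no count minimum, fewer model classes, all mouse reads as the total and the length trend removed. Sequences are from GENCODE M21 transcripts and RefSeq promoters (GRCm38.p6); only 22 members matched a promoter.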

Additional observations from a re-analysis of the deposited data

Results flagged for a closer look

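Antisense loci opposite the 36 genes entered no gene count. They held 41 reads in replicate 1, opposite 11 of the genes, and 144 reads in replicate 2, opposite 17. Most lay opposite Rgs5 (16 and 43 reads), Flt1 (3 and 30), Epas1 (5 and 27) and Esam (7 and 11), while Rgcc, with the highest mean level, had 4 and 5. They were marked because they are signal outside the measured genes above the 3 reads that a count of 0 allows. Flt1 had more antisense reads than sense reads in replicate 2, 30 against 7. Reads outside annotated genes were also a larger part of the second library as a whole. There, annotated genes took 93.0% of the mouse total, against 97.2% in the first library. Whether the antisense rise at vessel genes goes beyond this general difference was not tested.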

How the results depend on the processing

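No paired analysis was possible because the series has 1 group, so no replicate number is shared between groups. TMM factors raised every log2 ratio by 0.26 and DESeq2 size factors by 0.41. Genes called higher in replicate 1, 8 as reported, were 5 with TMM factors, 4 with DESeq2 size factors and 3 with the length trend removed; the 1 gene higher in replicate 2 became 0 with the length trend removed. Genes whose leading model share differed, 4 as reported, were 2 with at least 50 reads in each library and 0 (Fisher exact test) without incomplete and genomic models.

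Log2 ratios that changed sign, none of them called as reported, were with TMM factors Cdh5 0.24, Esam 0.17 and Ramp2 0.23; with DESeq2 size factors Cdh5 0.39, Esam 0.32 and Ramp2 0.38; with the length trend removed Cdh5 0.63, Esam 0.14, Eng 0.093, Gpihbp1 −0.32, Rgcc −0.26, Ly6c1 −0.40 and Myl9 −0.18; and without incomplete and genomic models Aqp1 −2.05, Ramp2 0.20 and Mcam −0.23.

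Summed ratios moved out of their interval with DESeq2 size factors to 0.38 for junction genes, 0.67 for capillary genes, −0.46 for pericyte genes and 0.16 for smooth muscle genes. With TMM factors the capillary ratio was 0.52. The endothelial and mural ratios, −0.04 and −0.58 as reported, were 0.21 and −0.33 with TMM factors and 0.37 and −0.18 with DESeq2 size factors; the mural ratio was −0.86 without incomplete and genomic models and −0.23 without Rgs5, a setting chosen after seeing the data. The ratio of all 36 genes, −0.19 as reported, changed sign to 0.061 with TMM factors and 0.21 with DESeq2 size factors. Without incomplete and genomic models the ratio was −1.33 for pericyte and −1.37 for shared genes, and mean levels were 78.3 CPM for junction genes, 38.5 for receptors, 17.2 for shared genes, 546 for all endothelial genes and 770 for all 36. With all mouse reads as the total the junction genes were at 87.3 CPM and all endothelial genes at 581 CPM. The cause was not tested.

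Without 1 replicate the summed level ranged from 91.0 to 92.6 CPM (junction), 48.8 to 70.4 (receptors), 39.3 to 103 (transcription factors), 353 to 423 (capillary), 93.9 to 171 (pericyte), 96.1 to 114 (smooth muscle), 21.1 to 26.1 (shared), 602 to 619 (all endothelial), 190 to 285 (all mural) and 813 to 930 (all 36).

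Depth limits the low genes: 5 of 36 had under 10 reads in sum. P-values measure only the spread of read counting between these 2 libraries.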

Other observations

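Annotated forms were also read for vessel genes with few reads. The full-length receptor form Kdr-201, of 30 exons, held 2 and 3 reads, and Tek-203 and Tie1-201, each of 23 exons, held 5 and 4 and 6 and 11 reads. Emcn-202, of 12 exons, held 4 and 3 of the Emcn reads, and Cdh5-201, also of 12 exons, held 2 and 3 of the Cdh5 reads. Annotated forms of other long receptor genes had no read in replicate 2: Flt1-202 had 1 and 0, Robo4-205 (18 exons) 2 and 0 and Pdgfrb-201 (23 exons) 1 and 0.

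Ly6e was read in annotated forms of 4 exons, Ly6e-201 (2281 bases; 10 and 16 reads) and Ly6e-215 (1122 bases; 2 and 8 reads). Gpihbp1-203, of 1652 bases, held 1 and 7 reads beside 34 and 46 of the 825-base Gpihbp1-201. An unannotated combination of annotated splice sites in Myl9, of 4 exons and 1160 bases, held 6 reads in replicate 1 and 8 in replicate 2 and was found in both libraries. None of these shares was tested.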
